A study of Mus musculus with 18 samples.

Results

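The 123 array probes described here read lower in embryonic stem cells that carry Oct4 joined to the VP16 activation domain than in both comparison lines at every time sampled. They were chosen from the deposited value table, put on the log2 scale and averaged over the 2 arrays of each group. A probe was taken when its Oct4 VP2 mean lay at least 1 log2 unit, or 2-fold, below the Oct4 mean and below the ZHBTc4 mean at all 3 time points, which makes 6 differences. The table holds 25030 probes, so the 123 are 0.491% of it. The same rule turned the other way, always higher in Oct4 VP2, takes 192 probes.

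Mouse embryonic stem cells of the 129/Ola strain were hybridised on 18 arrays in 9 groups of 2, and the series describes the 2 as independent clones. ZHBTc4 is a line in which oct4 is transcribed from a transgene that tetracycline can switch off, and its labels mention no tetracycline. Oct4 VP2 was made from ZHBTc4 by growing it with tetracycline and electroporating an oct4-vp16 construct that integrates at random. It was kept under tetracycline and puromycin at 2 μg/ml. The Oct4 line was made in the same way with an oct4 construct. The labels of its LIF cultures, however, name 2 numbered Oct4 lines, call the modification a knock-in and mention neither drug. Each Oct4 change from LIF may therefore also compare lines or drugs, which cannot be told apart from time. The promoter of the constructs is not given in the sources used here. RNA of each line was taken from cultures with leukaemia inhibitory factor (LIF) at 24 h from plating. Other cultures lost LIF at that point and gave RNA after 48 h or 120 h of withdrawal, the 120 h cultures with a further change of medium. Flasks of Oct4 VP2 were seeded with 250000 cells and those of the other lines with 200000. Seeding and line therefore cannot be told apart in any difference of Oct4 VP2 from the other lines. The drugs given to Oct4 VP2 are not mentioned for ZHBTc4 or for Oct4 with LIF. Drugs and line thus cannot be told apart in those differences either. In bulk cultures, fewer cells of a kind and less RNA per cell cannot be told apart.

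Oct4 (Pou5f1) is a POU-family transcription factor that binds DNA through an octamer element and is required to keep embryonic stem cells pluripotent. LIF signals through STAT3 and holds mouse embryonic stem cells undifferentiated in culture, and its removal starts differentiation. VP16 is a viral activation domain, so the fusion ties Oct4's DNA binding to strong transcriptional activation.

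The files do not pair probes with genes: the identifiers are array design numbers, of which 0 matched the mouse gene table. Oct4 itself, pluripotency genes and markers of other cell types were therefore not analysed here, and the cell type in the labels could not be checked against its markers. What the files do give is each 60-base probe. The sequences below are printed 5′ to 3′ from the scanner files. The first pair are the members whose smallest of the 6 differences in the value table is largest. Their letters are all in lower case because nothing in them is singled out.
Z00063386-1: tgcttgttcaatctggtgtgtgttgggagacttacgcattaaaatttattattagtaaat
Z00031814-1: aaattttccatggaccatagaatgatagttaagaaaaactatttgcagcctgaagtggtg
The next 3 hold the octamer ATGCAAAT, in capitals, a known form of the element that POU factors bind.
Z00024098-1: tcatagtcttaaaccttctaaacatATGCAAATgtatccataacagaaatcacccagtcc
Z00049078-1: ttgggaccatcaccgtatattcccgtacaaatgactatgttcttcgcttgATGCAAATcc
Z00061371-1: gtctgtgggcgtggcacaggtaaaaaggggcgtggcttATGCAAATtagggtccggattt
The last pair is a member and an overlapping probe that the value table lacks, with their 56 shared bases in capitals.
Z00022872-1: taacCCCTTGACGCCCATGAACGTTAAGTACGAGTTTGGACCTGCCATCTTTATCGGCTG
Z00055094-1: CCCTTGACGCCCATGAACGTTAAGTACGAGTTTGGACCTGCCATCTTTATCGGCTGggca

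A probe sequence is part of a transcript, not of its promoter, so a motif in it is a description of letters and not a binding site. ATGCAAAT stood in 3 of the 123 probes, or 2.44%, and in 68 of all 42006 probes, or 0.162%. Counting either strand, the share was 2.44% of the members and 0.348% of all probes. This motif was looked at after the sequences had been seen. The polyadenylation signal AATAAA, which lies near the 3′ end of many messenger RNAs, stood in 6.5% of the members and 6.93% of all probes. Its variant ATTAAA stood in 6.5% and 3.19%, and on either strand the shares were 8.94% and 10.1% for AATAAA and 11.4% and 5.4% for ATTAAA. The motifs were counted separately, whether or not they overlapped. The members' median GC content was 40% and that of all probes 43.3%.

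A single member could be placed in the genome. Z00038074-1 shares 54 bases with RefSeq's 300-base window at the start of Plet1os, at chr9:50505002-50505055 in GRCm38.p6. This stretch is on the plus strand, opposite to Plet1os, and lies within the span of Plet1 (chr9:50494525-50505639), a gene known from placental and trophoblast progenitor cells whose own start window is on the plus strand. Its exons were not used here, so the position within the gene is not given. No member (0 of 123) shared 20 bases with a microRNA hairpin.

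All values that follow are log2 ratios of sample over reference RNA, after background correction and loess normalisation within each array, unless the value table is named. The reference, a pool of RNA from cell lines, was the same on every array. Hybridisation took 5 slides and scanning 2 sessions. The first session covered every Oct4 VP2 array, Oct4 without LIF, and replicate 1 of both ZHBTc4 groups without LIF, and the second covered the remaining 6 arrays. At 48 h and 120 h the differences of Oct4 VP2 from Oct4 therefore lie within 1 session. With LIF, Oct4 VP2 was scanned in the first session and both other lines in the second. Line and session cannot be told apart in those differences. Every Oct4 change from LIF also crosses the sessions, as does the ZHBTc4 change on replicate 1, so session is mixed with time there. The share of probes well above background in the sample channel was 62.8% on the lowest array and 75.2% on the highest.

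Most of the probes gave a measurable signal in Oct4 VP2. All 123 passed the filter on dim signal, which asks for both arrays of at least 1 group. In Oct4 VP2, 89 were well above background on all 6 arrays, 31 on 1 to 5 arrays and 3 on 0 arrays. In the other lines together, 108 were well above background on all 12 arrays. No member (0) was saturated on any array. The median member stood at -1.82 in Oct4 VP2 with LIF, -1.84 at 48 h and -1.20 at 120 h. In Oct4 the medians were -0.60, -0.01 and 0.84, and in ZHBTc4 they were -0.72, -0.08 and 0.63. The median member of Oct4 VP2 was thus below the reference at every time, whereas that of the other lines was above it by 120 h.

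The size of the deficit, which the rule fixes and which is given as a description, depended on the processing. In the value table the median difference from Oct4 was -2.04 with LIF, -2.32 at 48 h and -2.30 at 120 h. From ZHBTc4 it was -2.07, -2.33 and -2.14. After background correction and loess the medians were -1.23, -1.61 and -1.69 from Oct4 and -1.13, -1.58 and -1.76 from ZHBTc4. On that scale 120 of the 123 kept all 6 differences below 0, and 56 kept all 6 at 1 or more. With the sample channel alone, all 6 were below 0 in 123 and at 1 or more in 58. In the reference channel alone the median differences lay between -0.14 and -0.04, although 7 members differed there by over 1 at some time.

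The members spread from the limit of the rule to far beyond it. The smallest of the 6 differences had a median of 1.34 over the members and reached 4.97 in Z00063386-1. In 21 members all 6 differences were 2 or more. At the limit, 29 members had a smallest difference between 1 and 1.1, and 43 probes that were not taken had one between 0.9 and 1. The nearest inside was Z00002681-1 at 1.0007, and the nearest outside was Z00019400-1 at 0.9974. Over single arrays after loess, both Oct4 VP2 arrays lay below all 4 others at each time in 103 members, against 3.52% of all 31728 probes fitted, a count that the rule itself drives. In the value table both differences were larger at 120 h than with LIF in 51 members and smaller in 33. They were larger by at least 1 in 21 members and smaller by at least 1 in 2. These counts describe values that the rule used, were not tested, and have no share over all probes beside them. The differences with LIF also cross the scan sessions, whereas those from Oct4 at 120 h do not.

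Z00063386-1 and Z00031814-1 differed from the comparison lines by about the same amount at every time. On the Oct4 VP2 arrays, replicates 1 and 2, Z00063386-1 read -2.63 and -2.48 with LIF. It read -2.81 and -2.37 at 48 h, then -2.95 and -2.30 at 120 h. On the Oct4 arrays it read 0.36 and 1.28, 0.99 and 0.35, and 0.67 and 0.17. On the ZHBTc4 arrays it read 0.87 and 0.91, 0.27 and 0.66, and 0.18 and 0.57. All 6 Oct4 VP2 arrays were thus below all 12 others, and no line's own change passed the test. At 120 h its change was -0.07 (SE 0.319, limma adjusted p = 0.90) in Oct4 VP2, -0.40 (adjusted p = 0.34) in Oct4 and -0.51 (adjusted p = 0.23) in ZHBTc4. It was well above background on 3 of the 6 Oct4 VP2 arrays and on all 12 others. Z00031814-1, which was well above background on all 18 arrays, lay between -2.86 and -2.14 on the Oct4 VP2 arrays, between 0.08 and 0.91 on the Oct4 arrays and between -0.11 and 0.38 on the ZHBTc4 arrays. Its Oct4 VP2 arrays did not overlap those of the other lines either, while the Oct4 and ZHBTc4 arrays overlapped each other. Such a gap is favoured by the rule, by which these probes were picked.

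Further probes that share sequence with members were on the array but outside the value table, so the rule could not have chosen them. In 6 members at least 20 consecutive bases were shared with such a probe, on the same strand in all 6 and with 0 partners in the table. Z00055094-1, the partner of Z00022872-1 printed above, differed from Oct4 by -3.25 with LIF, -4.17 at 48 h and -1.94 at 120 h. Z00022872-1 itself differed by -2.97, -4.27 and -1.96. The deficit and its shrinking at 120 h were thus read alike by both oligonucleotides. Over the 6 pairs, 35 of 36 partner differences were below 0 and 27 were at 1 or more, the same number as for the members themselves. In 1 of these pairs, Z00031822-1 with Z00058054-1, all 60 bases are shared, so the partner is the same oligonucleotide again. Over the other 5 pairs 29 of 30 partner differences were below 0 and 24 were at 1 or more. Values of a pair lay a median of 0.198 apart and at most 1.15 apart. Because the partners share sequence with members, they repeat the measurement of these RNAs on the same arrays and are not further biological replicates.

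Within each line, the change without LIF was then tested. Cultures with LIF were taken at 24 h only, so loss of LIF and longer culture cannot be told apart in these tests. These tests use the arrays that the rule used, though not its contrasts, and each member's count is read against the share of all probes called. A call is a change of at least 2-fold with a limma p, adjusted by Benjamini-Hochberg over all probes fitted, under 0.05. By 48 h few members had risen. In ZHBTc4 20 rose and 5 fell, against 1.87% and 2.37% of all probes, or 4.24% in either direction. In Oct4 12 rose and 2 fell, against 1.4% and 1.36%, or 2.76% in either direction. In Oct4 VP2 4 rose and 0 fell, against 0.946% and 0.851%, or 1.8% in either direction. The median change over the members was 0.47 in ZHBTc4, 0.43 in Oct4 and 0.03 in Oct4 VP2. With the scan session as a block the Oct4 count at 48 h was 4 in place of 14. Within the second session alone the ZHBTc4 count was 6 in place of 25, with 1 array at 48 h. The Oct4 count at 48 h was 2 without Oct4 with LIF replicate 1 and 34 without replicate 2. The count of 4 in Oct4 VP2 was 1 within the first session and between 1 and 7 when single arrays were left out.

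At 120 h most members had risen in the comparison lines. In ZHBTc4 79 of 123 rose and 2 fell, against 7.51% and 6.56% of all probes, or 14.1% in either direction. In Oct4 74 rose and 2 fell, against 6.93% and 5.54%, or 12.5% in either direction. In Oct4 VP2 34 rose and 2 fell, against 2.81% and 1.83%, or 4.65% in either direction. The members' median change was 1.46 in ZHBTc4, 1.39 in Oct4 and 0.80 in Oct4 VP2, whereas over all probes it was -0.01, 0.04 and -0.02. The ZHBTc4 total of 81 was 80 with the session as a block and 65 within the second session, and the Oct4 total of 76 was 67 with the block. The Oct4 arrays with LIF are those whose labels differ in line and drugs. The 3 changes share no arrays. The 192 probes chosen the other way round are given as a description. Their rule used the same values at 120 h with the sign turned, so they are no independent control. At 120 h 188 of them could be tested. In ZHBTc4 0 rose and 41 fell (0% and 21.8%), and in Oct4 2 rose and 33 fell (1.06% and 17.6%). In Oct4 VP2 9 rose and 33 fell (4.79% and 17.6%), both above the shares of all probes. The difference in change between Oct4 VP2 and the other lines was not tested, since the rule used those contrasts.

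The 2 Oct4 VP2 arrays at 120 h stood apart from each other. Replicate 1 had a median change of 1.26 over the members, with 74 at least 1 above the line's mean with LIF, while replicate 2 had 0.33 and 22. Of all probes fitted, 3.91% and 2.81% were at least 1 above on these arrays. The medians of replicates 1 and 2 were 1.33 and 1.52 in Oct4 and 1.44 and 1.50 in ZHBTc4. There 78 to 82 members were at least 1 above, against 6.97% to 7.95% of all probes. The rise on Oct4 VP2 replicate 1 was thus a little below that on each of those 4 arrays, and the rise on replicate 2 was further below. The count of 36 calls in Oct4 VP2 at 120 h was 15 without replicate 1 and 65 without replicate 2. Slide coincides with time here, as both Oct4 VP2 arrays at 120 h lay on the second slide and those with LIF on the first, so slide and time cannot be told apart. With the slide as a random block 25 rose and 0 fell.

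The calls at 120 h sort the members as follows. In 62 the rise at 120 h was called in both Oct4 and ZHBTc4, which is 50.4% of the members and 4.12% of all probes. Of these, 27 were also called in Oct4 VP2 (22% of the members and 0.974% of all probes) and 35 were not. A further 29 rose in only 1 of the comparison lines, against 1969 of the 31728 probes fitted. A fall was called in 6 members, of which 5 rose in no line and 1 is among the 29. Over all 31728 probes a fall was called in 2977. No call in any line was made for 27 members, or 22%, against 79.4% of all probes. No member (0) rose in Oct4 VP2 alone, against 373 of all 31728 probes, a share so small that the 0 is not read further. The 27 uncalled members had median levels of -1.25, -1.35 and -1.41 with LIF, at 48 h and at 120 h in Oct4 VP2, and of -0.06, 0.05 and 0.42 in Oct4. The 35 that were called in Oct4 and ZHBTc4 alone had medians of -2.47, -2.41 and -1.47 in Oct4 VP2 and of -1.13, -0.39 and 1.22 in Oct4. Their median thus rose in Oct4 VP2 too, and a missing call there is not an absence of a rise. The split of 27 and 35 depends on the Oct4 VP2 arrays at 120 h, as calls in that line numbered 15 without replicate 1 and 65 without replicate 2. At 120 h, 71 members of Oct4 VP2 were below the level that both other lines had with LIF, 28 were above both and 24 lay between. These counts are a description, since the rule starts every member below both lines with LIF. No share over all probes was computed for them.

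Z00035273-1 rose in every line. In Oct4 VP2 its 2 arrays read -1.98 and -1.62 with LIF. They read 0.35 and -0.47 at 48 h, then 1.92 and 0.53 at 120 h. In Oct4 they read -1.27 and -0.08, 1.57 and 0.86, and 2.41 and 2.51. In ZHBTc4 they read 0.49 and 0.51, 1.56 and 1.77, and 2.38 and 2.58. Oct4 VP2 at 120 h thus reached about the level of Oct4 at 48 h, with overlapping arrays. The change at 120 h was 3.02 (SE 0.439, limma adjusted p = 0.00049) in Oct4 VP2, 3.13 (adjusted p = 0.00010) in Oct4 and 1.98 (adjusted p = 0.0027) in ZHBTc4. Z00076806-1 rose in all 3 lines at 48 h as well. Its change at 48 h was 1.16 (limma adjusted p = 0.038) in Oct4 VP2, 2.03 (adjusted p = 0.0014) in Oct4 and 1.98 (adjusted p = 0.00092) in ZHBTc4. The Oct4 VP2 call at 48 h was lost within the first session and when any of its 4 arrays was left out. In Z00022872-1, both Oct4 VP2 arrays at 120 h, at 3.19 and 1.56, stood above the 4 earlier ones, which lay between -0.74 and -0.42.

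Some members moved early in the comparison lines. Z00008056-1 rose in ZHBTc4 from -0.87 and -0.88 with LIF to 1.22 and 1.41 at 48 h, by 2.19 (SE 0.295, limma adjusted p = 0.00039). Its Oct4 arrays read -1.06 and -0.23 with LIF and 0.28 and 0.00 at 48 h. Its Oct4 VP2 arrays read -1.75 and -1.48, then -1.85 and -1.83, a small mean change of -0.225 that was not called, so no rise was seen by that time. Z00074836-1 rose in Oct4 from -3.57 and -2.13 to -0.37 and 0.70 at 48 h, by 3.01 (SE 0.644, limma adjusted p = 0.0095), a call lost with the session as a block. Its Oct4 VP2 arrays went from -4.91 and -4.85 to -2.25 and -3.52, a change of 2.00 that was not called (adjusted p = 0.086). Z00046413-1 dipped at 48 h and came back. It read 1.25 and 1.80, then 0.32 and -0.22, then 2.22 and 1.87 in Oct4, and 1.39 and 1.35, then -0.38 and 0.54, then 1.98 and 2.55 in ZHBTc4. The dip was -1.47 (limma adjusted p = 0.022) in Oct4 and -1.29 (adjusted p = 0.034) in ZHBTc4, and both calls were lost with the session as a block.

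The 3 octamer-bearing probes differed in their course. Z00049078-1 read -0.24 and -0.81 with LIF and 1.34 and 0.40 at 120 h in Oct4 VP2, a rise of 1.40 (SE 0.309, limma adjusted p = 0.0061) that was lost without replicate 1 at 120 h. In Oct4 it read 1.08 and 2.03 with LIF and 1.62 and 1.87 at 120 h, and in ZHBTc4 it rose from 0.58 and 0.54 to 1.89 and 2.15. Z00024098-1 was dim, with signal well above background on 1 of the 6 Oct4 VP2 arrays, 2 of the 6 Oct4 arrays and all 6 ZHBTc4 arrays. It lay between -0.03 and 0.24 in Oct4 VP2, between -0.02 and 0.25 in Oct4 and between 0.29 and 0.90 in ZHBTc4. The Oct4 VP2 and Oct4 arrays of this probe overlapped after background correction, although the value table put them at least 1.31 apart.

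The largest rises showed the split between the Oct4 VP2 replicates. Z00033292-1 had the largest change of any member in ZHBTc4, from -2.06 and -2.14 with LIF to 3.01 and 2.66 at 120 h, a change of 4.93 (SE 1.07, limma adjusted p = 0.0022). In Oct4 it went from -2.25 and -0.14 to 2.80 and 3.22, a change of 4.21 (adjusted p = 0.0065) that was lost with the session as a block or without Oct4 with LIF replicate 1. In Oct4 VP2 it went from -3.65 and -3.23 to 1.61 on replicate 1 and -2.96 on replicate 2, and was not called. Z00005188-1 had the largest change of any member in Oct4, from -4.65 and -3.03 to 0.65 and 1.25, a change of 4.79 (SE 0.833, limma adjusted p = 0.00051). Its Oct4 VP2 arrays went from -5.61 and -5.67 to -0.73 and -4.14, a change of 3.21 (adjusted p = 0.014) that was lost without replicate 1 at 120 h and without either array with LIF.

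Few members fell. Z00034287-1 went from -1.68 and -0.79 with LIF to -2.51 and -2.70 at 120 h in Oct4 VP2, a fall of -1.36 (SE 0.382, limma adjusted p = 0.021). In Oct4 it rose from -0.13 and 0.12 to 1.08 and 1.38, by 1.23 (adjusted p = 0.019), the single member called in opposite directions in 2 lines at 120 h. The Oct4 VP2 call was lost with the slide as a random block, within the first session and without either 120 h array. The Oct4 call was lost with the session as a block. Z00038074-1, the probe within Plet1, read 1.29 and 2.21 with LIF and 1.11 and 0.11 at 120 h in Oct4 VP2, a fall of -1.14 (limma adjusted p = 0.026) that was also lost with the slide as a random block and without replicate 2 at 120 h. In ZHBTc4 it was high throughout, between 3.32 and 5.19, and in Oct4 it lay between 1.86 and 3.75. Z00043693-1 fell in ZHBTc4 from -0.42 and -0.48 with LIF to -1.72 and -1.78 at 120 h, by -1.30 (SE 0.125, limma adjusted p = 4.6e-06). Its Oct4 VP2 signal was not well above background on any array, so with LIF ZHBTc4 exceeded it at least 3.53-fold in the sample channel.

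Bounds of this kind apply to dim members. A bound compares the brighter line's mean with the higher of the dim probe's own signal and the lowest signal well above background, in the normalised sample channel, and could carry dye bias as no dyes were swapped. With LIF, 17 members were not well above background on either Oct4 VP2 array, 18 at 48 h and 5 at 120 h. The bounds ran from at least 1.11-fold to at least 10.5-fold with LIF, from 1.08-fold to 4.27-fold at 48 h and from 1.21-fold to 3.69-fold at 120 h. The largest belonged to Z00055592-1 with LIF, against ZHBTc4. For most such members the measurement therefore bounds the deficit only weakly.

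The Oct4 and ZHBTc4 lines differed from each other in few of these probes, though in a larger share than over all probes in the main fit. With LIF, Oct4 against ZHBTc4 called 2 members (1.63%) higher and 5 (4.07%) lower. The shares of all probes were 0.523% and 1.65%, or 2.17% in either direction. At 48 h it called 1 (0.813%) higher and 2 (1.63%) lower, against 0.366% and 0.385%, or 0.75% in either direction. At 120 h it called 4 (3.25%) higher and 7 (5.69%) lower, against 1.63% and 2.31%, or 3.94% in either direction. The 120 h count was 3 on the processed signals, against 2727 of the 31728 probes fitted, and 2 on the deposited value table, against 1861 of its probes. The 48 h count was 1 on each, against 433 and 295 of all probes. These are smaller shares than over all probes, so the larger share at 48 h and 120 h depended on the processing. The median difference over the members was 0.07, -0.04 and 0.05 at the 3 times. The 120 h count of 11 was 7 with the session as a block and 6 within the first session, and it ran from 4 to 15 when single arrays were left out. The 48 h count of 3 was 1 with the session as a block, 1 within the first session and 0 with the slide as a random block.

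Individual members nevertheless separated the comparison lines. Z00039143-1 rose in Oct4 from -1.87 and -0.18 with LIF to 0.83 and 0.55 at 120 h, while ZHBTc4 read -2.36 and -2.44 and then -1.96 and -2.05. At 120 h Oct4 exceeded ZHBTc4 by 2.69 (SE 0.378, limma adjusted p = 0.00042). Oct4 VP2, at -2.69 and -3.15, was nearer to ZHBTc4. Z00010489-1 rose in both lines, to 4.14 and 3.90 in Oct4 and 2.01 and 1.73 in ZHBTc4 at 120 h, while Oct4 VP2 read 0.00 and -2.37. The difference of 2.15 between Oct4 and ZHBTc4 (limma adjusted p = 0.025) was lost with the session as a block. Z00051036-1 went the other way, with 0.49 and 0.51 in Oct4, 1.96 and 2.78 in ZHBTc4 and 0.45 and -0.02 in Oct4 VP2 at 120 h. Its difference of Oct4 from ZHBTc4 was -1.87 (SE 0.226, limma adjusted p = 0.00014), and it was lost on the processed signals of the scanner software. Z00061371-1, which carries the octamer, read 1.70 and 1.71 in Oct4, 3.26 and 3.94 in ZHBTc4 and 1.43 and 0.08 in Oct4 VP2 at that time. Its difference of Oct4 from ZHBTc4 was -1.89 (limma adjusted p = 0.022), and it was lost with the session as a block and within the first session.

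Whether the 120 h change itself differed between Oct4 and ZHBTc4 was tested as an interaction. It was called positive, with the Oct4 change above the ZHBTc4 change, in 5 members and negative in 3, against 2.01% and 1.86% of all probes, or 3.86% in either direction. The count of 8 was 2 on the processed signals and on the deposited value table, 4 with median centring and from 4 to 13 when single arrays were left out. Of all probes, 1806 were called on the processed signals, 1253 on the deposited value table and 601 with median centring. The members' share was thus below that of all probes in the processed signals and the value table, and above it with median centring. It rests on the Oct4 arrays with LIF, whose labels differ in line and drugs. Among those called, Z00004770-1 had the largest positive value, 1.79 (SE 0.317, limma adjusted p = 0.0043), a call lost with median centring in place of loess. In Oct4 it went from -2.47 and -1.92 to -0.11 and -0.13, and in ZHBTc4 from -0.79 and -0.75 to -0.21 and -0.74. The lines thus differed with LIF and came closer at 120 h. Z00042672-1 had the largest negative value, -1.92 (SE 0.410, limma adjusted p = 0.011), a call lost on the processed signals of the scanner software. In ZHBTc4 it rose from -1.47 on both arrays to 0.19 and 0.11, while in Oct4 it read -1.32 and -0.03 and then -1.16 and -0.81.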

How the data were processed

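The members and every list and test were chosen with earlier results of these data known. The scanner files, made with Agilent Feature Extraction 9.5.1.1 per the file headers, give each spot's intensity in Cy3 (sample) and Cy5 (reference). The value table deposited by the authors (25030 probes) is in log10 units and was multiplied by 3.3219 for log2. After centring each probe, 100% of its values came within 0.001 of the scanner software's log10 ratio of sample over reference. The constant added to each probe is unknown, and column medians were 2.33 to 2.36. The lowest correlation between arrays was 0.743.

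In limma 3.58.1 (R 4.3.3), background was corrected with normexp (offset 50), arrays were normalised by loess and spots of a probe averaged. Of 42006 probes, the 31728 with Cy3 signal well above background on both arrays of any group were fitted. A mean for each of 9 groups was fitted with lmFit and eBayes (9 residual and 3.69 prior degrees of freedom), and 10 comparisons were drawn. The code was tested on simulated data. The number of arrays limits the precision. Replicate numbers were not taken as a pairing, since the labels tie no number to a clone across groups. Over 36 pairs of groups their deviations correlated from -0.25 to 0.70, with 8 over 0.1, of which 5 were among the 9 pairs within a line.

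Without gene names, the gene lists and naming by translated probe sequence were not used here. The rule for named probes gave 2 unnamed members with the largest smallest difference and the member matched to a gene's window. Other probes were picked after their values were seen, as extremes of a comparison or for their sequence. Sequence windows are RefSeq's (GRCm38.p6).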

Additional observations from a re-analysis of the deposited data

Results flagged for a closer look

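The change from LIF to 120 h differed between Oct4 and ZHBTc4 in 8 of the 123 probes by the interaction in limma, or 6.5% against 3.86% of all probes, and in 2 on the processed signals and on the deposited value table. Oct4 minus ZHBTc4 was 1.43 in Z00043693-1, 1.51 in Z00007320-1, 1.79 in Z00004770-1, -1.92 in Z00042672-1 and -1.22 in Z00051036-1.

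In some probes, 3 of them among those just named, every Oct4 VP2 array moved one way from the line's mean with LIF and every array of a comparison line the other way. These differences were not tested. Z00043693-1, Z00007320-1, Z00042672-1 and Z00024098-1 were well above background on 0 or 1 of the 6 Oct4 VP2 arrays, so their change in that line was not measured and the value given for them describes near-background signal. At 120 h, the Oct4 VP2 change minus the Oct4 change was -1.70 in Z00038074-1, -2.60 in Z00034287-1, -0.58 in Z00043693-1 and -0.84 in Z00007320-1. Minus the ZHBTc4 change it was -1.53 in Z00034287-1 and -0.46 in Z00024098-1. At 48 h, minus the Oct4 change, it was -0.99 in Z00002681-1, 1.81 in Z00023525-1, -1.01 in Z00008056-1, -0.80 in Z00039143-1, -0.73 in Z00042672-1 and -1.30 in Z00022872-1. At 48 h, minus the ZHBTc4 change, it was -1.87 in Z00002681-1, 1.65 in Z00023525-1, 0.77 in Z00031822-1, -2.41 in Z00008056-1, -0.59 in Z00039143-1, -1.01 in Z00042672-1 and -1.32 in Z00022872-1.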

How the results depend on the processing

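The counts of members called depended on the arrays, and the cause was not tested. When each array was left out in turn, the counts ran from 1 to 7 for Oct4 VP2 at 48 h, 15 to 65 at 120 h, 2 to 34 for Oct4 at 48 h, 55 to 85 at 120 h, 12 to 29 for ZHBTc4 at 48 h and 68 to 83 at 120 h. They ran from 5 to 15 for Oct4 against ZHBTc4 with LIF, 0 to 6 at 48 h, 4 to 15 at 120 h and 4 to 13 for the interaction. The rule took 82 probes without Oct4 VP2 at 120 h replicate 2 and 158 without replicate 1. On the processed signals, counts were 7 for Oct4 VP2 at 48 h, 58 at 120 h, 1 and 3 for Oct4 against ZHBTc4 at 48 h and 120 h, and 2 for the interaction. With median centring they were 0 for Oct4 VP2 at 48 h, 38 for Oct4 at 48 h and 4 for the interaction. On the deposited value table they were 1 and 2 for Oct4 against ZHBTc4 at 48 h and 120 h, and 2 for the interaction. With the session as a block they were 4 for Oct4 at 48 h, and 1 and 7 for Oct4 against ZHBTc4 at 48 h and 120 h. With the slide as a random block (correlation 0.165) they were 9 for Oct4 at 48 h and 0 for Oct4 against ZHBTc4 at 48 h. Within the first session, an alternative chosen after seeing the data, they were 1 for Oct4 VP2 at 48 h, and 1 and 6 for Oct4 against ZHBTc4 at 48 h and 120 h, and within the second 6 for ZHBTc4 at 48 h. No filter and, added likewise, the sample channel alone left every count within 1.5 times. So did the replicate block, which gave 35 for Oct4 VP2 at 120 h. The numbers were not taken as a pairing, and the block's calls of single probes are not read further. The rule took 25 probes with median centring (22 of the 123), 59 on background-corrected and loess values (56 of the 123), 204 at a limit of 0.8 and 78 at 1.2. Over the 75 called values of named probes, the alternatives left 1731 past the threshold and 268 not, and turned 0. The alternative for naming by translation was not run. Signal over background limits the size of the deficit in Oct4 VP2.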
